A study of Homo sapiens with 9 samples.

Results

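The ATP-binding cassette (ABC) genes were described in 3 sublines of the pancreatic ductal adenocarcinoma (PDAC) cell line SUIT-2. A gene was included when its symbol was ABC, a subfamily letter from A to G and a number, and 46 of the 42717 genes of the deposited table met this rule. RNA was sequenced from the sublines S2-007, S2-028 and S2-020, with 3 libraries per line and 9 in all. The labels name no drug, vector or knockdown, and all cells were grown in DMEM with 10% inactivated fetal bovine serum. The study set the lines apart by their maspin protein, which was both nuclear and cytoplasmic in S2-007, mainly cytoplasmic in S2-028 and only weakly detected in S2-020. Each condition was therefore 1 cell line, so that the location of maspin and everything else that separates the sublines cannot be told apart. The labels did not say whether the libraries of a line came from separate cultures, and the p-values measured only the spread between these libraries, which may be technical.

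ABC proteins bind and split ATP in a pair of nucleotide-binding domains, and most couple this to moving a substrate across a membrane. Full transporters carry both domain sets in one chain, whereas others carry a single set and form dimers. Several members pump drugs and their conjugates out of cells and are known for multidrug resistance, others move cholesterol, phospholipids, bile acids or heme precursors, and those of subfamilies E and F have no membrane domain and act on ribosomes. In the pancreas the family is known, among others, for the drug pumps of ductal tumors, the sulfonylurea receptor of islet cells and CFTR, the chloride channel of the ducts.

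The total count was between 60328748 and 86253923 per library. Levels are given as TMM-normalized CPM, which are read counts scaled to library size, and a count of 3, taken as the floor, corresponded to 0.0361 to 0.0492 CPM. Of the markers of other cell types, the summed level of 4 acinar and of 4 endocrine genes stayed below 1 CPM in every library, that of 4 leukocyte genes was at most 2.3 CPM, that of 5 fibroblast genes at most 5.75 CPM, that of 3 endothelial genes 5.4 to 9.84 CPM and that of 4 hepatocyte genes 13.1 to 22 CPM. Nearly all of the endothelial sum was PECAM1, with means of 6.18 CPM in S2-007, 8.50 in S2-020 and 6.01 in S2-028. Nearly all of the hepatocyte sum was CYP3A4, with 19.7, 14.7 and 15.3 CPM in the same order. The other 2 endothelial and 3 hepatocyte genes stayed below 1 CPM. The endothelial sum was highest in S2-020 (8.81 to 9.84 CPM, beside at most 7.57 CPM in the other lines), and its part in the results was not tested. The summed level of 8 ductal and epithelial genes was 9630 to 10100 CPM in S2-007, 4390 to 5510 CPM in S2-020 and 15300 to 17900 CPM in S2-028, and its part in the results was not tested. KRT8 weighed most in this sum, with means of 4815, 2912 and 8450 CPM in the same order. The genes did not share one order. KRT7, KRT8, KRT18 and CDH1 were highest in S2-028, EPCAM, KRT19 and MUC1 in S2-007, and SOX9 in S2-020. Fewer cells of a type and less RNA per cell cannot be told apart in such bulk samples.

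Of the 46 genes, 45 had enough counts to be tested in at least 1 comparison and 43 in all 3. ABCA8 was tested in none, ABCA4 not between S2-020 and S2-007, and ABCG5 only there. A gene was called when its adjusted p was under 0.05 and its fold change at least 1.5 in either direction, by the quasi-likelihood test of edgeR with p adjusted by Benjamini-Hochberg over all genes tested. In S2-028 against S2-007, 4 of the 44 ABC genes tested were called higher (10.2% of all genes tested were) and 11 lower (8.19% of all genes), so that 15 were called in either direction (34.1%, beside 18.4% of all genes). In S2-020 against S2-007, 7 were called higher (9.57% of all genes) and 10 lower (12.1%), or 17 in either direction (38.6%, beside 21.6% of all genes). In S2-028 against S2-020, 9 were called higher (12.1% of all genes) and 10 lower (10.1%), or 19 in either direction (43.2%, beside 22.2% of all genes). The comparisons share libraries pairwise and are not independent of each other. The shares over all genes, here and below, were not matched for level. In simulated data, changes in genes of low level were called less often. How much of the gap to the family goes with its level was not tested.

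The summed level of the family was lowest in S2-028, at 1466 to 1493 CPM, beside 1716 to 1853 CPM in S2-007 and 1829 to 1920 CPM in S2-020, and its share of all counts was 0.15% to 0.153% in S2-028 and 0.178% to 0.182% in the other lines. This sum is set mainly by the most abundant members. The median log2 fold change of the ABC genes tested was −0.06 in S2-028 against S2-007, −0.14 in S2-020 against S2-007 and −0.07 in S2-028 against S2-020, beside 0.00, −0.05 and 0.02 over all genes tested. Their fold changes were wider, with a median size of 0.49, 0.54 and 0.57, beside 0.35, 0.39 and 0.39 over all genes. Of the 24 genes called in at least 1 comparison, 9 had their highest mean in S2-007, 8 in S2-020 and 7 in S2-028. The same split over all genes called is not given, so these numbers only describe the family. The libraries of both lines did not overlap for 54.5% of the ABC genes tested in S2-028 against S2-007, 63.6% in S2-020 against S2-007 and 65.9% in S2-028 against S2-020, beside 43.3%, 48.5% and 48.9% of all genes tested. These shares were likewise not matched for level. Of the 51 calls, ABCG1 in S2-028 against S2-020 was the only one with overlapping libraries. A gene that passes the thresholds for a call will seldom overlap. The share among all genes called is not given, so this only describes the calls.

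**Figure D1:**
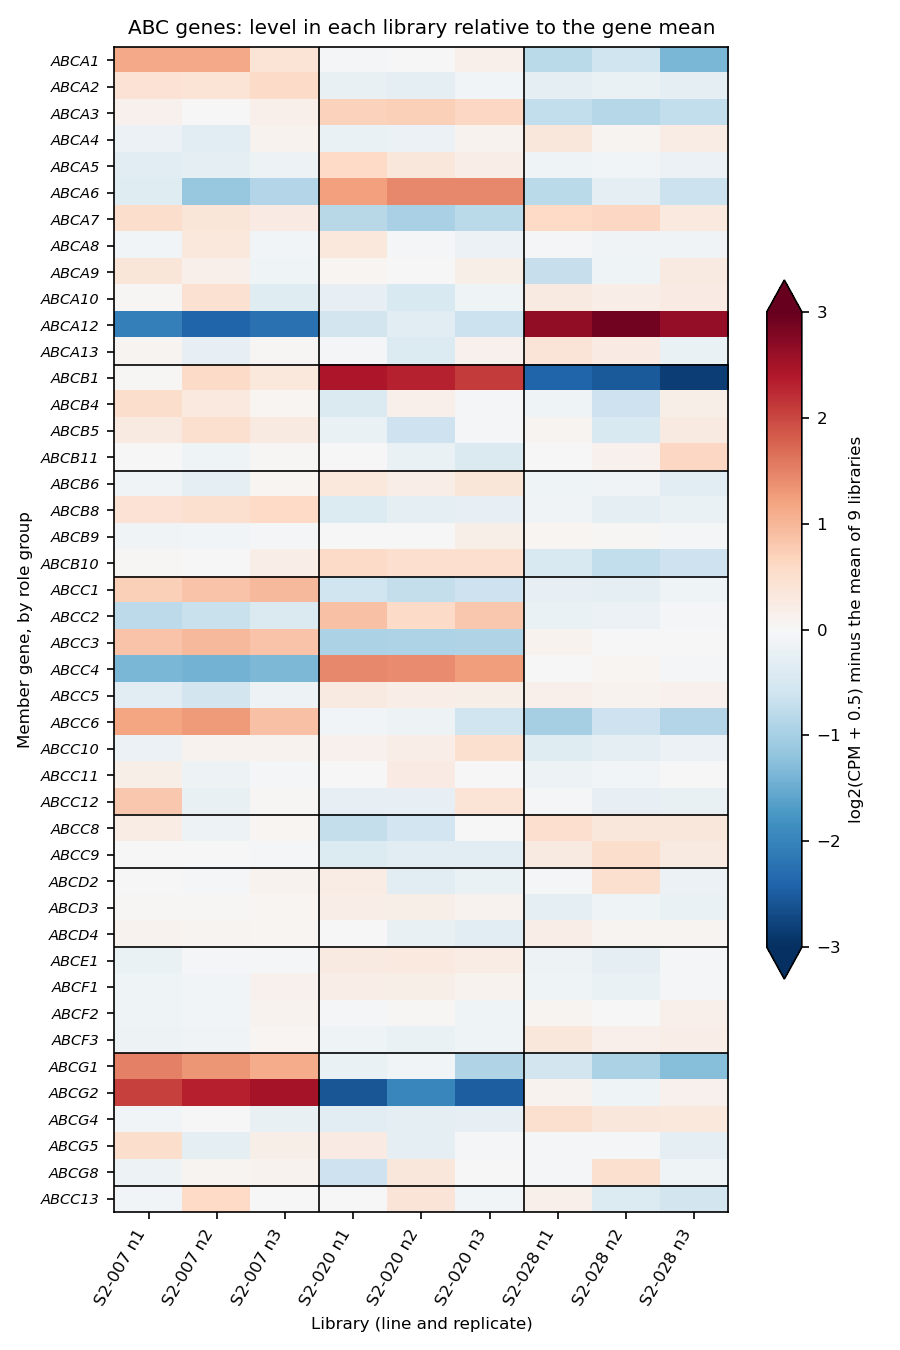
Level of 44 of the 46 ABC genes (rows, by role group) in each of the 9 libraries (columns), as log2(CPM + 0.5) minus the gene's mean over the 9 libraries. The strongest colors lie in the rows of ABCA12, ABCB1 and ABCG2, whereas the rows of ABCE1 and of the ABCF genes are nearly blank.

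Per kilobase of exon, the most abundant ABC gene in every line was ABCF1, a regulator of translation initiation without a membrane domain, with 44.4 ± 4.33 CPM per kb in S2-007, 50.9 ± 1.57 in S2-020 and 41.3 ± 1.84 in S2-028 (mean ± SD, n = 3 libraries). What came next differed. In S2-007 it was ABCC3 with 32.4 ± 1.61 CPM per kb, in S2-020 ABCC4 with 42.2 ± 2.9, and in S2-028 ABCE1 with 25.7 ± 1.77, which is needed to recycle ribosomes. A mean of at least 1 CPM in some line was reached by 40 genes, and the other 6 stayed below it in all lines.

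**Figure D2:**
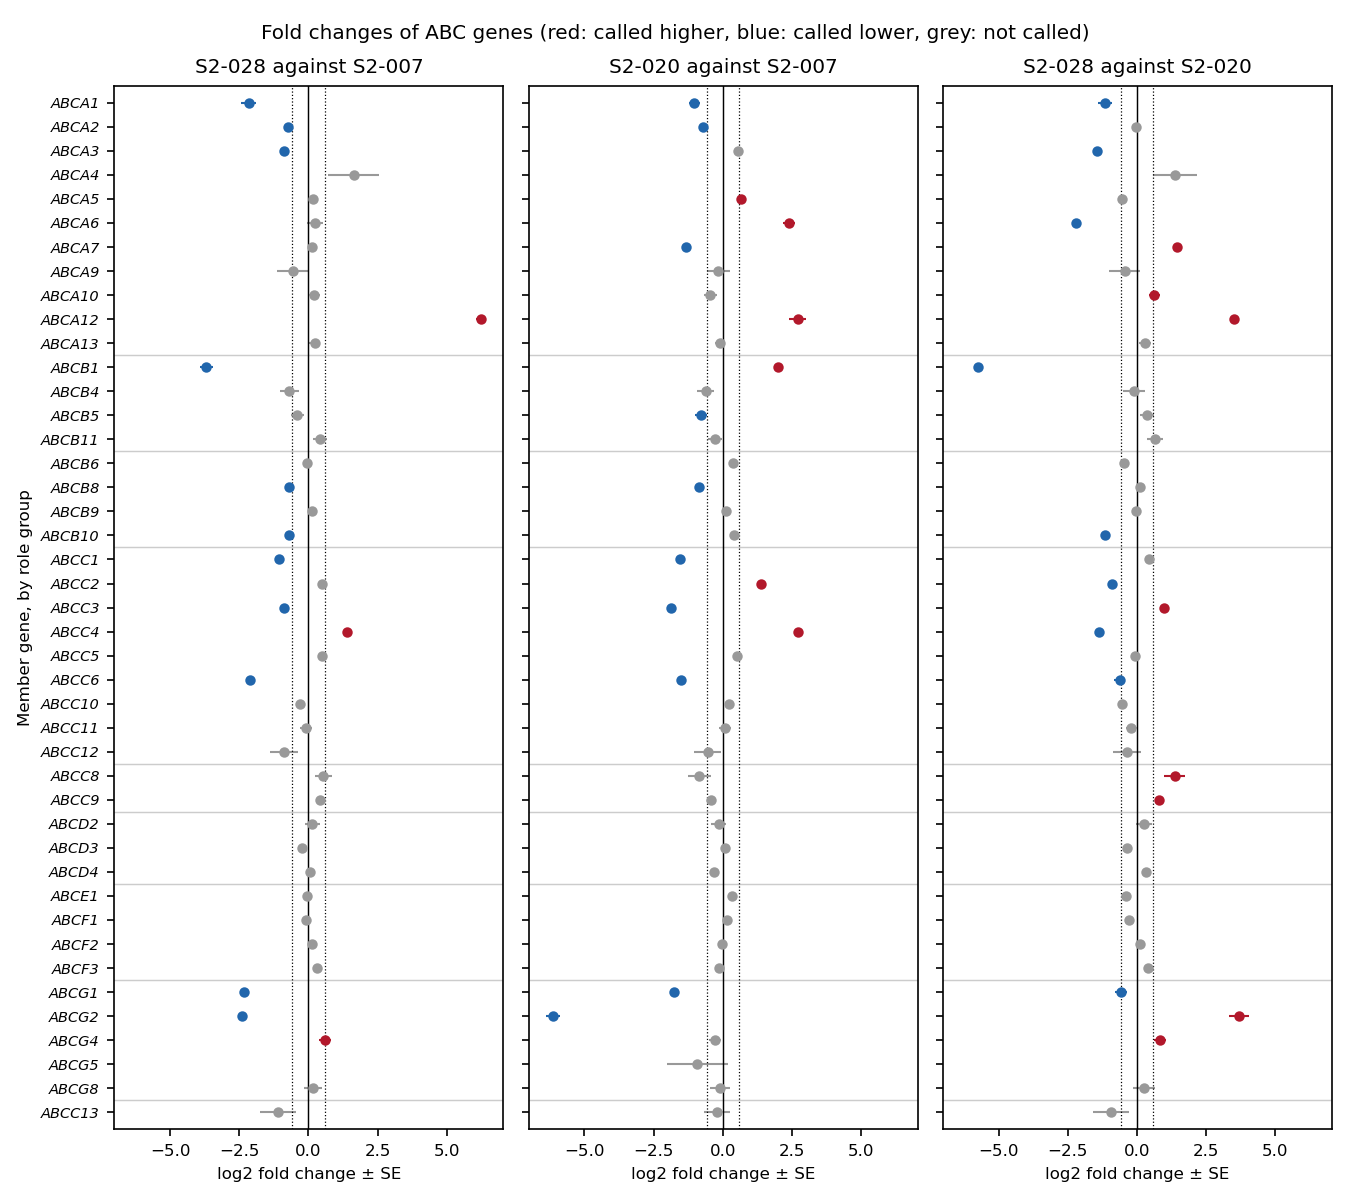
log2 fold change and its standard error (horizontal axis) of the ABC genes tested and reported (vertical axis, by role group) in the 3 comparisons. Red points were called higher, blue points lower and grey points not called, and the dotted lines mark a fold change of 1.5 in either direction. The points farthest from 0 are ABCA12, ABCB1 and ABCG2, and no point of ABCE1, ABCF1, ABCF2 or ABCF3 is colored.

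To show promoters from across the family, the called gene with the largest fold change within each role group was taken, which gave ABCA12, ABCB1, ABCB10, ABCC4, ABCC8 and ABCG2 among others. Some genes not shown moved further than ABCB10. For 5 of them the 250 bases before the annotated start of the gene are printed 5′ to 3′ on the strand of the gene, from RefSeq on GRCh38.p14, with every CG in capitals. All lie on the minus strand, at chr2:215138627-215138876 (ABCA12), chr7:87713296-87713545 (ABCB1), chr1:229558708-229558957 (ABCB10), chr13:95301452-95301701 (ABCC4) and chr4:88231627-88231876 (ABCG2).
ABCA12: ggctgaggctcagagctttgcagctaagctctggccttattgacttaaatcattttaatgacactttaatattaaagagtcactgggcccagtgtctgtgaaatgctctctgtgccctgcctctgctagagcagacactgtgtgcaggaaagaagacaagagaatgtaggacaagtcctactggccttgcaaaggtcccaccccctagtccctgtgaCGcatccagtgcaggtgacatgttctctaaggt
ABCB1: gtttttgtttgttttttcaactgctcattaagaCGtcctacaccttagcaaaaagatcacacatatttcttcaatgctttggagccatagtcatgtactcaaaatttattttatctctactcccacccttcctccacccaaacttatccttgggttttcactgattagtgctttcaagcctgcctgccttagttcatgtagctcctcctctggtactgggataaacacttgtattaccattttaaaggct
ABCB10: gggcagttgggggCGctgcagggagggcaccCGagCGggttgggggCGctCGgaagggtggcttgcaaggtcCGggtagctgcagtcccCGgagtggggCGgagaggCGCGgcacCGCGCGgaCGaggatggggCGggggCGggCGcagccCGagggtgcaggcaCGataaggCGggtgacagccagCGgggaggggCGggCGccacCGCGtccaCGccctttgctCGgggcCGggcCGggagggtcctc
ABCC4: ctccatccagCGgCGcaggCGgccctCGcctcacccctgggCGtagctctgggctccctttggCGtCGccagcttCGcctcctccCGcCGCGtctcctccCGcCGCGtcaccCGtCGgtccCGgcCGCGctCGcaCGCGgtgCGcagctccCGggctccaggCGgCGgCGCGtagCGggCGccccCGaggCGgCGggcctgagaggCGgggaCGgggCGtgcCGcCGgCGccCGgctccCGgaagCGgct
ABCG2: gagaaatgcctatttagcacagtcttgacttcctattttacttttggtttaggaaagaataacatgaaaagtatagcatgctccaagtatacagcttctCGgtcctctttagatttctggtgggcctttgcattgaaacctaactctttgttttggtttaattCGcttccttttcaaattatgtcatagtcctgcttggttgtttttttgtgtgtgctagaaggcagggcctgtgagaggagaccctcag
The window of ABCC4 held 42 CG and that of ABCB10 held 29, whereas ABCA12 and ABCB1 had 1 each and ABCG2 had 2. Over 27305 promoters of the same length the median was 11. Few CG were not particular to the genes shown, since the windows of ABCA9, ABCA13, ABCB11 and ABCC11, called in no comparison, held at most 2 as well. The GC box GGGCGG, searched on both strands, was found in the window of ABCB10 and in 42.3% of all promoters, and TGACNNNGC, the core of the antioxidant response element, in that of ABCC4 and in 11% of all promoters. Neither was in the other windows shown. Which start site these lines use was not measured, and ABCB1 and ABCG2 have several. A promoter was held for 35 of the 46 genes, under 80%, so no share over the family is given.

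The drug efflux genes are described first. ABCB1 encodes P-glycoprotein, the full transporter that exports a broad range of hydrophobic drugs, and lies on chr7:87503017-87713295. It read 5.93, 8.83 and 7.29 CPM in S2-007, 33.1, 30.9 and 26.5 CPM in S2-020, and 0.693, 0.595 and 0.394 CPM in S2-028. S2-020 was high, S2-028 low and S2-007 between them, with no overlap. Its log2 fold change was −3.70 ± 0.24 (SE) in S2-028 against S2-007 (adjusted p = 4.31e-11), 2.01 ± 0.12 in S2-020 against S2-007 (adjusted p = 4.03e-11) and −5.74 ± 0.16 in S2-028 against S2-020 (adjusted p = 6.46e-16). The neighboring ABCB4, which exports phosphatidylcholine into bile, was under 2 CPM in every library (0.439 to 1.59 CPM) and was called in no comparison. ABCB1 shared 3.17% of its transcript words of 31 bases with ABCB4.

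ABCG2 encodes the breast cancer resistance protein, a dimer that exports drugs, urate and porphyrins, on chr4:88090264-88231626. Its level was 14.9, 18.1 and 20.4 CPM in S2-007, 0.125, 0.457 and 0.167 CPM in S2-020, and 3.5, 2.91 and 3.58 CPM in S2-028. Here S2-007 was high and S2-020 close to nothing, and no libraries of different lines overlapped. In S2-020 against S2-007 the log2 fold change was −6.13 ± 0.25 (adjusted p = 7.38e-14), in S2-028 against S2-007 −2.41 ± 0.14 (adjusted p = 1.00e-11) and in S2-028 against S2-020 3.70 ± 0.36 (adjusted p = 5.39e-08). S2-020 replicate 2 was the highest of its line, and without it the values against S2-020 were −6.94 for S2-020 against S2-007 and 4.49 for S2-028 against S2-020. S2-020 thus had the most ABCB1 and the least ABCG2 of the lines.

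ABCC4 encodes MRP4, which exports cyclic nucleotides, prostaglandins and nucleoside monophosphate analogs, on chr13:95019835-95301451. Its libraries read 53.9, 51.9 and 54.8 CPM in S2-007, 383, 374 and 336 CPM in S2-020, and 140, 147 and 135 CPM in S2-028. The 3 lines were well apart, with S2-020 highest and S2-007 lowest. Its log2 fold change was 2.74 ± 0.060 in S2-020 against S2-007 (adjusted p = 5.83e-18), 1.40 ± 0.062 in S2-028 against S2-007 (adjusted p = 1.05e-13) and −1.37 ± 0.058 in S2-028 against S2-020 (adjusted p = 2.45e-13).

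ABCC3 encodes MRP3, the basolateral exporter of glucuronides and bile salts, on chr17:50634881-50692253. It took the opposite order, with 303, 329 and 301 CPM in S2-007, 85.8, 86.7 and 88.2 CPM in S2-020, and 178, 169 and 164 CPM in S2-028. S2-007 was highest and S2-020 lowest, without overlap. This gave a log2 fold change of −1.87 ± 0.055 in S2-020 against S2-007 (adjusted p = 4.47e-16), −0.87 ± 0.061 in S2-028 against S2-007 (adjusted p = 2.35e-10) and 0.97 ± 0.053 in S2-028 against S2-020 (adjusted p = 1.39e-11).

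ABCC1 encodes MRP1, which exports glutathione and its conjugates, on chr16:15949143-16143053. It read 182, 199 and 216 CPM in S2-007, 71.9, 67 and 71.4 CPM in S2-020, and 92.3, 91.2 and 101 CPM in S2-028. S2-007 was above both other lines. Its log2 fold change was −1.54 ± 0.061 for S2-020 (adjusted p = 5.12e-14) and −1.06 ± 0.067 for S2-028 (adjusted p = 3.39e-11), each against S2-007. Between S2-028 and S2-020 it was 0.44 ± 0.061, which had an adjusted p of 6.52e-06 but lay under the fold threshold.

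ABCC2 encodes MRP2, the apical exporter of bilirubin glucuronides. In S2-007 it was at 20.3, 22.1 and 25.9 CPM, in S2-020 at 65.5, 52.9 and 62.3 CPM, and in S2-028 at 30.5, 31.2 and 34.5 CPM. S2-020 stood above the other lines, with a log2 fold change of 1.37 ± 0.088 against S2-007 (adjusted p = 9.30e-11), and S2-028 was lower than S2-020 (−0.91 ± 0.081, adjusted p = 2.00e-08). In S2-028 against S2-007 the value was 0.50 ± 0.091, under the fold threshold. Without S2-007 replicate 3 it was 0.59 and would be called.

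ABCC5 and ABCC10, which encode MRP5 and MRP7, were called in no comparison. ABCC5, an exporter of cyclic nucleotides and nucleoside analogs, read 30.4, 25.9 and 34.2 CPM in S2-007, 46.2, 43.9 and 43.4 CPM in S2-020, and 42.7, 40.9 and 42.1 CPM in S2-028. Its value of 0.53 ± 0.082 in S2-020 against S2-007 (adjusted p = 2.03e-05) was short of the fold threshold, and became 0.65 without S2-007 replicate 3. ABCC10, a lipophilic anion transporter, read 19.9, 24.5 and 24.5 CPM in S2-007, 24.8, 25.9 and 31.6 CPM in S2-020, and 17.6, 18.5 and 19.9 CPM in S2-028. Its log2 fold change of −0.55 ± 0.098 in S2-028 against S2-020 (adjusted p = 1.07e-04) passed the fold threshold only without S2-020 replicate 1 (−0.62), S2-020 replicate 2 (−0.60) or S2-028 replicate 3 (−0.59).

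**Figure D3:**
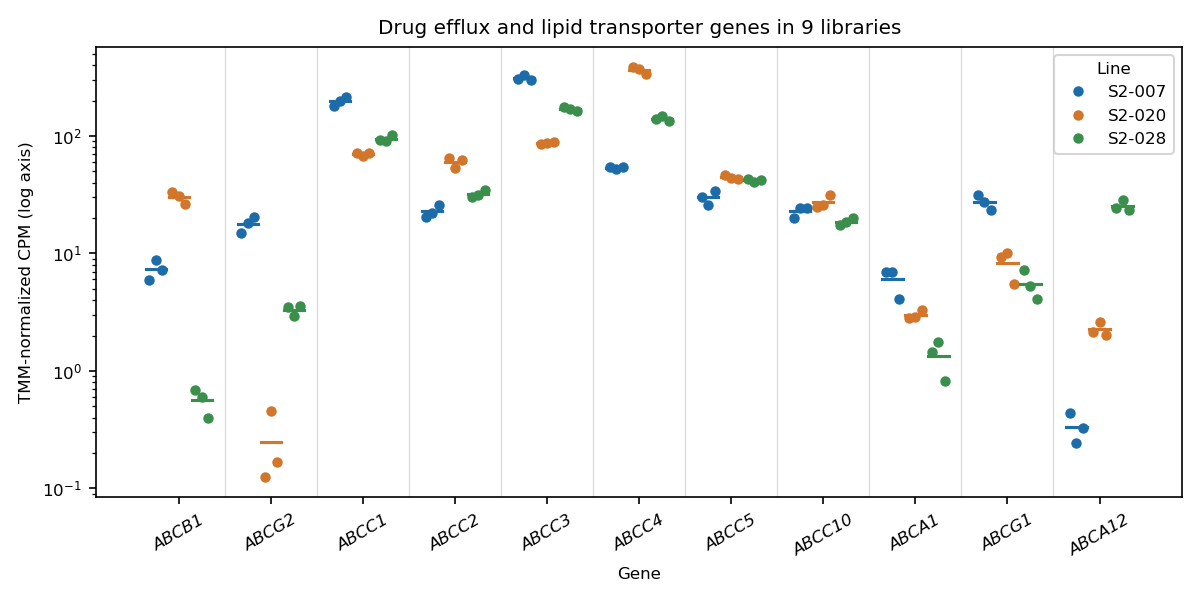
TMM-normalized CPM (vertical log axis) of the 8 drug efflux genes and of ABCA1, ABCG1 and ABCA12 in the 9 libraries. Points are libraries and short lines the means of 3. ABCB1 is highest in S2-020 and lowest in S2-028, ABCG2 is highest in S2-007 and lowest in S2-020, and ABCA12 is highest in S2-028.

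The makeup of the drug efflux mRNA was then compared per kilobase of exon. The choice of this sum over 8 genes (ABCB1, ABCC1, ABCC2, ABCC3, ABCC4, ABCC5, ABCC10 and ABCG2) was made after values had been seen, and no test was run on it. The exon length is the union of all annotated exons of a gene, which need not be the length of its mRNA in these lines. Levels per kb of different genes, here and above, are therefore compared only roughly. The sum was 74.07 ± 3.64 CPM per kb in S2-007, 79.01 ± 3.05 in S2-020 and 55.65 ± 0.196 in S2-028 (mean ± SD, n = 3). In S2-007, ABCC3 made up 43.8% ± 2.46 and ABCC1 30.7% ± 1.43 of it. In S2-020, ABCC4 made up 53.4% ± 2.02, while ABCC3 and ABCC1 were at 11.5% ± 0.605 and 10.2% ± 0.516. S2-028 lay between, with 31.8% ± 1.16 for ABCC3, 29.3% ± 1.26 for ABCC4 and 19.5% ± 1.13 for ABCC1. ABCB1 was a small share in every line, with 1.54% ± 0.252 in S2-007, 5.94% ± 0.449 in S2-020 and 0.157% ± 0.0423 in S2-028. The share of ABCG2 was 4.28% ± 0.475, 0.0567% ± 0.041 and 1.07% ± 0.114 in the same order.

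**Figure D4:**
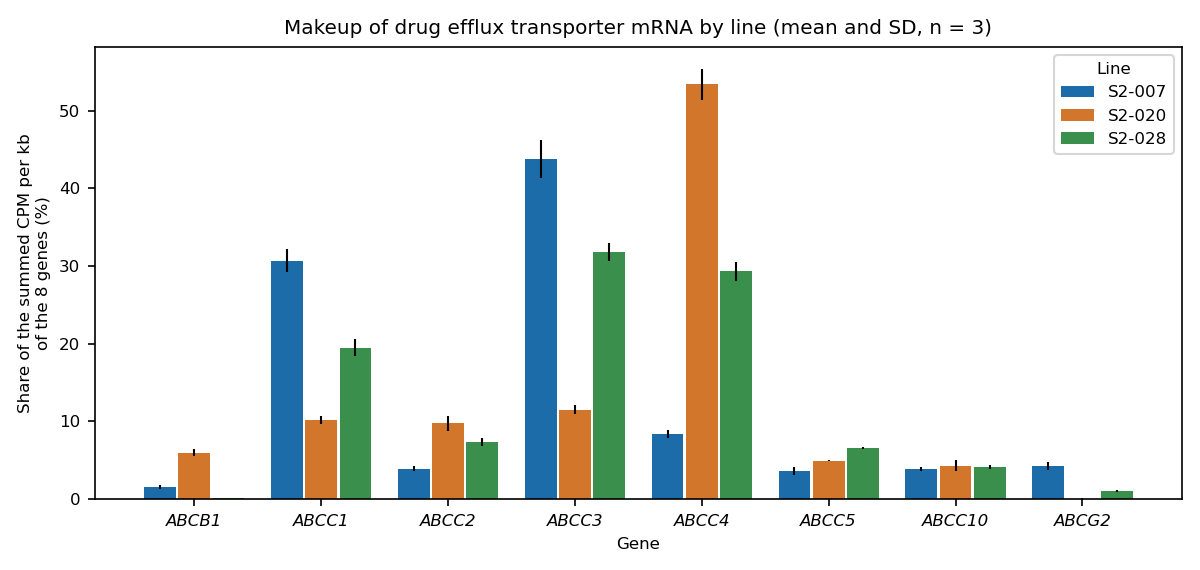
Share (%, vertical axis) of each of the 8 drug efflux genes in their summed CPM per kb, by line. Bars are means and error bars SD of 3 libraries. ABCC3 is the largest share in S2-007 (43.8%) and ABCC4 in S2-020 (53.4%), and in S2-028 both are near 30% (31.8% and 29.3%).

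Among the genes of lipid transport, the cholesterol exporters ABCA1 and ABCG1 were highest in S2-007, whereas the sterol transporter ABCG4, given below, was highest in S2-028. ABCA1, which loads cholesterol and phospholipid onto apolipoprotein A-I, read 7, 6.99 and 4.07 CPM in S2-007, 2.83, 2.9 and 3.32 CPM in S2-020, and 1.45, 1.75 and 0.82 CPM in S2-028. Its libraries fell in the order S2-007, S2-020, S2-028 with no overlap. The log2 fold change was −2.16 ± 0.26 in S2-028 against S2-007 (adjusted p = 7.73e-07), −1.03 ± 0.20 in S2-020 against S2-007 (adjusted p = 2.21e-04) and −1.16 ± 0.25 in S2-028 against S2-020 (adjusted p = 9.23e-04). ABCG1, a dimeric transporter that passes sterol to high-density lipoprotein, read 31.5, 27.7 and 23.6 CPM in S2-007, 9.29, 10.1 and 5.49 CPM in S2-020, and 7.2, 5.26 and 4.13 CPM in S2-028. S2-007 was above both other lines, with a log2 fold change of −2.32 ± 0.16 for S2-028 (adjusted p = 1.22e-10) and −1.76 ± 0.16 for S2-020 (adjusted p = 1.82e-08) against it. S2-028 and S2-020 overlapped, and the call between them (−0.59 ± 0.21, adjusted p = 0.0308) was lost without S2-020 replicate 1 (−0.50), S2-020 replicate 2 (−0.42), S2-028 replicate 2 (−0.53) or S2-028 replicate 3 (−0.40).

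ABCA12 had the largest fold change of the family. It encodes the lipid transporter of keratinocyte lamellar granules, on chr2:214931542-215138626. The level was 0.441, 0.242 and 0.326 CPM in S2-007, 2.14, 2.61 and 2.01 CPM in S2-020, and 24.3, 28.3 and 23.6 CPM in S2-028. S2-028 was far above the other lines and S2-007 lowest. ABCA12 had a log2 fold change of 6.23 ± 0.17 in S2-028 against S2-007 (adjusted p = 7.26e-17), 2.71 ± 0.30 in S2-020 against S2-007 (adjusted p = 2.47e-07) and 3.49 ± 0.13 in S2-028 against S2-020 (adjusted p = 3.31e-14).

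ABCA3, the surfactant lipid transporter of lamellar bodies, was lowest in S2-028, where it read 38.6, 35.3 and 38.3 CPM. It read 70.1, 65.3 and 71.6 CPM in S2-007 and 104, 107 and 99.8 CPM in S2-020. The log2 fold change of S2-028 was −0.88 ± 0.070 against S2-007 (adjusted p = 1.36e-09) and −1.47 ± 0.062 against S2-020 (adjusted p = 2.71e-13). Between S2-020 and S2-007 it was 0.55 ± 0.056, under the fold threshold, and 0.60 without S2-007 replicate 3. ABCA2, a lysosomal transporter abundant in the nervous system, read 104, 101 and 113 CPM in S2-007, 64.7, 61.8 and 71.4 CPM in S2-020, and 62.5, 66.2 and 61.9 CPM in S2-028. Both lines were lower than S2-007, with −0.71 ± 0.062 for S2-020 (adjusted p = 1.08e-08) and −0.73 ± 0.063 for S2-028 (adjusted p = 5.22e-09). ABCA7, a phospholipid transporter known from the genetics of Alzheimer disease, was low in S2-020 with 10.6, 9.62 and 10.9 CPM, beside 28, 25.1 and 23 CPM in S2-007 and 29.4, 30.2 and 23.9 CPM in S2-028. The latter lines overlapped, and S2-020 differed from each (−1.32 ± 0.097 against S2-007, adjusted p = 7.75e-10, and 1.43 ± 0.10 for S2-028 against S2-020, adjusted p = 1.01e-09).

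A cluster of 5 ABCA genes lies on chromosome 17, and its members did not move together. ABCA6, on chr17:69078702-69141895, read 2.33, 1.16 and 1.45 CPM in S2-007, 7.98, 9.33 and 9.3 CPM in S2-020, and 1.56, 2.44 and 1.8 CPM in S2-028. S2-020 was above both other lines, with 2.40 ± 0.20 against S2-007 (adjusted p = 7.02e-09) and −2.19 ± 0.18 for S2-028 against S2-020 (adjusted p = 4.30e-09). ABCA5, a lysosomal member, read 4.89, 5.03 and 5.61 CPM in S2-007, 9.76, 8.07 and 7.32 CPM in S2-020, and 5.74, 5.94 and 5.46 CPM in S2-028. It was called higher in S2-020 against S2-007 (0.67 ± 0.14, adjusted p = 5.44e-04), but not without S2-020 replicate 1 (0.54). ABCA10 read 2.7, 3.75 and 1.92 CPM in S2-007, 2.12, 1.76 and 2.37 CPM in S2-020, and 3.29, 3.1 and 3.18 CPM in S2-028. Its call in S2-028 against S2-020 (0.62 ± 0.20, adjusted p = 0.0172) was lost without S2-020 replicate 2 (0.50). ABCA9 was below 1 CPM in all libraries and not called, and ABCA8, the member left untested, was at most 0.306 CPM. ABCA10 and ABCA9 shared 10.1% and 11.5% of their transcript words with other genes, on either strand, so their counts are uncertain. These shares do not say by how much.

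Of the ABCC genes outside drug efflux, ABCC6, ABCC8 and ABCC9 differed. ABCC6, the transporter of hepatocytes whose loss causes pseudoxanthoma elasticum, read 13.1, 14 and 10.5 CPM in S2-007, 5.14, 4.87 and 3.47 CPM in S2-020, and 2.51, 3.43 and 2.77 CPM in S2-028. S2-007 was high, with −2.11 ± 0.16 for S2-028 (adjusted p = 6.20e-10) and −1.51 ± 0.15 for S2-020 (adjusted p = 8.53e-08) against it. The call in S2-028 against S2-020 (−0.63 ± 0.20, adjusted p = 0.0139) was lost without S2-020 replicate 1 (−0.53), S2-020 replicate 2 (−0.57) or S2-028 replicate 1 (−0.535). ABCC6 shared 22.6% of its transcript words with other genes, chiefly its pseudogene ABCC6P1 (20.7%), and how the authors counted such reads was not given, so its level is uncertain.

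ABCC8 and ABCC9 encode the sulfonylurea receptors SUR1 and SUR2, which regulate ATP-sensitive potassium channels and transport nothing themselves. ABCC8 read 0.949, 0.618 and 0.788 CPM in S2-007, 0.265, 0.337 and 0.739 CPM in S2-020, and 1.27, 1.08 and 1.07 CPM in S2-028. ABCC9 read 4.77, 4.88 and 4.67 CPM in S2-007, 3.51, 3.75 and 3.7 CPM in S2-020, and 5.88, 7.17 and 5.89 CPM in S2-028. Both were higher in S2-028 than in S2-020, ABCC8 by 1.35 ± 0.39 (adjusted p = 0.00888) and ABCC9 by 0.79 ± 0.15 (adjusted p = 2.96e-04), and neither was called against S2-007. KCNJ11, the channel subunit that pairs with SUR1, averaged 2.51 CPM in S2-007, 1.68 in S2-020 and 5.09 in S2-028. It was called higher in S2-028 against S2-020 (1.60 ± 0.20, adjusted p = 2.25e-06) and against S2-007 (1.02 ± 0.23, adjusted p = 9.98e-04). KCNJ8, another channel subunit of the list, named after its values had been seen, was called in no comparison, with −0.23 ± 0.45 in S2-028 against S2-020 (adjusted p = 0.744).

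Dimeric ABCB transporters of mitochondria also differed between the lines. ABCB10, which supports heme synthesis, was lowest in S2-028, with 39.1, 32.4 and 34.8 CPM beside 55.4, 54.9 and 62.1 CPM in S2-007 and 80.4, 77.5 and 77 CPM in S2-020. Its values were −0.69 ± 0.079 against S2-007 (adjusted p = 4.00e-07) and −1.14 ± 0.071 against S2-020 (adjusted p = 8.76e-11). ABCB10 shared 9.87% of its transcript words with other genes, chiefly ABCB10P4 (8.76%), so its level is uncertain. ABCB8, a subunit of the mitochondrial ATP-sensitive potassium channel, was highest in S2-007, with 44.5, 45.7 and 49.4 CPM beside 24.4, 27 and 27.5 CPM in S2-020 and 30.2, 26.4 and 28.3 CPM in S2-028. Against S2-007 its log2 fold change was −0.85 ± 0.070 in S2-020 (adjusted p = 3.60e-09) and −0.71 ± 0.077 in S2-028 (adjusted p = 1.78e-07). ABCB6 and ABCB9, further dimeric ABCB transporters that are not counted as mitochondrial here, were at 16.4 to 26.2 and 14.9 to 18.2 CPM and were not called. Of the exon bases of ABCB6, 54.6% lie under a gene of the same strand, and of those of ABCB9, 24.6% under genes of the opposite strand.

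The ABCD subfamily brings fatty acids into peroxisomes or cobalamin out of lysosomes, and ABCD2, ABCD3 and ABCD4 were called in no comparison. ABCD3 (84.1 to 117 CPM) and ABCD4 (13.3 to 19.3 CPM) differed by at most 0.37 in size on the log2 scale, and ABCD2 was between 1.06 and 2.21 CPM.

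None of the 4 genes of ABCE and ABCF was called. ABCE1 ranged from 149 to 218 CPM, ABCF1 from 178 to 234 CPM, ABCF2 from 64.5 to 78.7 CPM and ABCF3 from 52.9 to 76.6 CPM. Their largest difference was −0.41 ± 0.056 for ABCE1 in S2-028 against S2-020 (adjusted p = 4.69e-06), under the fold threshold. ABCE1 shared 19.4% of its transcript words with other genes, and 37.1% of the exon bases of ABCF2 lie under a readthrough gene of the same strand.

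The remaining genes were low. ABCG4, a sterol transporter of the brain, read 1.7, 1.88 and 1.51 CPM in S2-007, 1.35, 1.44 and 1.49 CPM in S2-020, and 2.79, 2.46 and 2.43 CPM in S2-028. S2-028 was highest, with 0.84 ± 0.22 against S2-020 (adjusted p = 0.00372). Its call against S2-007 (0.60 ± 0.22, adjusted p = 0.0429) was lost with any one of the 6 libraries left out, with values of 0.51 to 0.68. ABCB5, known as a marker of melanoma-initiating cells, read 3.1, 3.71 and 3.11 CPM in S2-007, 2.1, 1.44 and 2.37 CPM in S2-020, and 2.66, 1.69 and 3.15 CPM in S2-028, and was lower in S2-020 than in S2-007 (−0.78 ± 0.21, adjusted p = 0.00549). ABCA13, ABCB11 (the bile salt export pump), ABCC11, ABCC12, ABCG8 and the transcribed pseudogene ABCC13 were tested in all comparisons and called in none, with the highest library of the 6 at 4.82 CPM. ABCA4 and ABCG5 were at most 0.29 and 0.374 CPM.

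The neighboring genes on the chromosome were also described. For each gene the median log2 fold change of the 50 nearest genes tested was taken, a window chosen after earlier values were known. For the 51 calls these medians lay between −0.48 and 0.67, and in 34 the median had the sign of the ABC gene. Since a called gene has a large fold change by definition and a median over 50 genes stays near 0, the sizes are a description only. The signs are a description as well, since the share with the same sign among all genes called is not given. For ABCB1 in S2-028 against S2-020 the median was 0.23, beside −5.74 for the gene, and for ABCA12 in S2-028 against S2-007 it was 0.04, beside 6.23. The gap was smaller for some calls. In S2-020 against S2-007 the median was −0.48 beside −0.78 for ABCB5, and −0.40 beside −0.71 for ABCA2. For ABCC3 in S2-028 against S2-020 it was 0.67, beside 0.97 for the gene. In the other comparisons of ABCC3 it was 0.30 beside −0.87 (S2-028 against S2-007) and −0.33 beside −1.87 (S2-020 against S2-007).

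**Figure D5:**
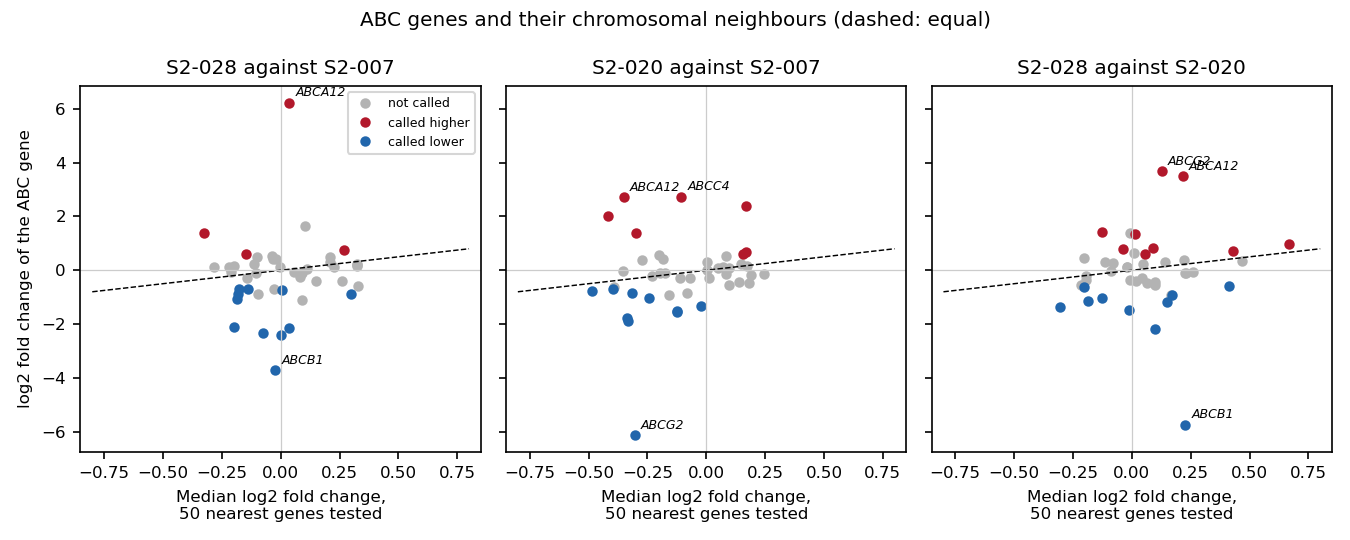
log2 fold change of each ABC gene tested (vertical axis) against the median log2 fold change of its 50 nearest genes tested (horizontal axis) in the 3 comparisons. Red points were called higher, blue lower and grey not called, and the dashed line marks equal values. The medians of the called genes stay between −0.48 and 0.67, while the genes reach from −6.13 to 6.23.

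Of the ABC genes with other symbols, CFTR, the chloride channel of pancreatic ducts, read 44, 47.6 and 40.5 CPM in S2-007, 12.5, 10.8 and 7.6 CPM in S2-020, and 5.74, 6.02 and 5.61 CPM in S2-028. It fell in that order, with −2.92 ± 0.097 in S2-028 against S2-007 (adjusted p = 9.55e-16), −2.12 ± 0.13 in S2-020 against S2-007 (adjusted p = 2.79e-11) and −0.83 ± 0.16 in S2-028 against S2-020 (adjusted p = 2.18e-04). TAP1 and TAP2, which form the peptide transporter of antigen presentation, were highest in S2-020, with means of 72.3 and 209 CPM. TAP1 was lower in S2-028 than in S2-020 (−0.68 ± 0.064, adjusted p = 3.91e-08). The call of TAP2 in S2-020 against S2-007 (0.59 ± 0.057) was lost without S2-007 replicate 1, S2-007 replicate 2 or S2-020 replicate 1, where it reached down to 0.56.

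Among 24 transcription factors known to act on ABC genes, 2 were called higher and 8 lower in S2-028 against S2-007, where 10.2% and 8.19% of all genes tested were. In S2-020 against S2-007 the numbers were 1 and 10 (9.57% and 12.1% of all genes), and in S2-028 against S2-020 2 and 2 (12.1% and 10.1% of all genes). HNF4A, a regulator of hepatic and enteric genes, averaged 229 CPM in S2-007, 28.2 in S2-020 and 25 in S2-028, with log2 fold changes of −3.05 ± 0.062 and −3.19 ± 0.077 against S2-007. AHR, the aryl hydrocarbon receptor, averaged 54.3, 25 and 80.3 CPM in the same order, and S2-028 was above S2-020 by 1.68 ± 0.075. The liver X receptors, which switch on ABCA1 and ABCG1 when bound by oxysterols, were singled out after their values had been seen. NR1H3 was lower than in S2-007 in S2-020 (−1.29 ± 0.11) and in S2-028 (−0.74 ± 0.092), whereas NR1H2 was higher in both (0.69 ± 0.062 and 0.64 ± 0.071). Whether any of these factors acted on the ABC genes was not tested.

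Of 25 partner proteins of ABC transporters, 24 were tested, with 3 called higher and 1 lower in S2-028 against S2-007, 2 and 1 in S2-020 against S2-007, and 2 and 3 in S2-028 against S2-020. Over all genes, 18.4%, 21.6% and 22.2% were called in either direction in these comparisons. PDZK1, a scaffold of apical transporters, was lower in S2-028 than in S2-007 (−2.54 ± 0.30) and S2-020 (−2.07 ± 0.33). MSN, the membrane linker moesin, was higher in S2-020 than in S2-007 (0.81 ± 0.065) and lower in S2-028 than in S2-020 (−1.28 ± 0.054). Of 32 solute carriers for uptake or extrusion of drugs, 26, 28 and 23 were tested in the same order of comparisons, with 1 higher and 6 lower, 2 and 5, and 2 and 2, beside the same shares over all genes. SLC15A1, the intestinal peptide transporter, averaged 198 CPM in S2-007, 50.6 in S2-020 and 9.83 in S2-028. SLC22A3, an organic cation transporter, was lowest in S2-020, with −1.72 ± 0.074 against S2-007 and 2.13 ± 0.081 for S2-028 against S2-020.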

How the data were processed

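Total RNA from 3 SUIT-2 sublines was sequenced as strand-specific libraries, 3 per line. Per the labels and methods, reads were trimmed with Trimmomatic 0.39 and aligned with BWA 0.7.17 to GRCh38.p14, with SAMtools 1.12. The authors deposited whole-number read counts per gene without normalization. The counting tool and its treatment of strand and of reads with several matches are not given in the sources used here, and BWA does not join reads across introns. A further 18 columns of signal, normalized and deposited by the authors, and 2 lines naming no gene were not used.

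Counts were analysed with edgeR 4.0.16 in R 4.3.3: filterByExpr (minimum count 10, minimum total 15), TMM and the quasi-likelihood test, each fit on all genes and on only the 6 libraries it compares. Printed CPM used TMM factors from all 9 libraries. SE was computed from the fold change and its F statistic. The procedure was tested on simulated data for S2-028 against S2-007, and its pass mark was set after its first runs. At a mean log2 CPM of 0 or more, 77.6% of log2 fold changes of 1 and 100% of those of 2 were called. Under that level the shares were 5% and 40%. Levels per kb used the union of exons of GENCODE release v44. All 46 genes matched the RefSeq table of GRCh38.p14, which gave the coordinates. Alternatives were the likelihood ratio test, DESeq2 1.42.0, other size factors, other filters, a joint fit, a 1.5-fold null, the replicate number as a block, and leaving out each library.

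Genes called in some comparison with a mean of at least 1 CPM in a line, and the drug efflux and cholesterol genes, were given in every library; at most 4 called genes of each other list were named per comparison. The members and lists were chosen with earlier results of these data known. Values of 2 of the 46 genes are not reported here, and counts over the family include them.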

Additional observations from a re-analysis of the deposited data

How the results depend on the processing

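Each of the 51 calls was repeated under at most 14 alternative settings, which gave 712 repeats, and 677 of these kept the call. The repeats drew on the same libraries and are not independent of each other. No sign was reversed. Of the 35 losses, 14 came from the test against a 1.5-fold null, which is stricter by construction; it gave 4 ABC genes called higher in S2-028 against S2-020 in place of 9, and 2977, 3639 and 3638 calls over all genes in place of 4858, 5769 and 5788 (in S2-028 against S2-007, S2-020 against S2-007 and S2-028 against S2-020). Leaving out a library ended 6 of the calls, among them those of ABCG4 against S2-007, of ABCG1, ABCC6 and ABCA10 in S2-028 against S2-020, and of ABCA5 in S2-020 against S2-007. In other settings, ABCG4 against S2-007 was also lost with DESeq2 (adjusted p = 0.0555), without a filter on low counts (adjusted p = 0.069) and with the replicate block (adjusted p = 0.0513), and ABCG1 in S2-028 against S2-020 with at least 10 counts in every library (−0.58) and with the replicate block (−0.575). Deviations of libraries with the same replicate number correlated at −0.0444 to 0.126, so the numbers were not taken to pair the libraries. With the replicate block, 3 ABC genes were called higher and 11 lower in S2-028 against S2-007. DESeq2's size factors moved the median fold change of all genes by at most 0.0314 on the log2 scale. For genes under about 1 CPM, such as ABCA4, ABCA8, ABCA9, ABCC12, ABCC13 and ABCG5, the counts limit the test, and also large differences can be missed at 3 libraries per line.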
